A study of Mus musculus with 24 samples.

Results

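The 10 genes described here are nuclear receptors that set metabolic programmes in the liver, or bind the receptors that do: Nr1h4, Nr0b2, Nr1i2, Nr1i3, Nr1h3, Rxra, Esr1, Thrb, Rora and Vdr. They were chosen by symbol. All 10 were found in each of the 3 expression tables, among 31053 genes listed for the hepatocyte libraries, 25876 for the cholangiocyte libraries and 20729 for the single organoid libraries. The study grew organoids from the liver of wild-type adult BALB/c mice and sequenced their mRNA. The first table holds 3 libraries labelled primary hepatocytes (Pri-Hep) and 3 each of hepatocyte organoids (Hep-Orgs) at passages P1, P5 and P10, all from the cell fraction without the epithelial surface protein EpCAM. These Hep-Orgs grew in a hepatocyte medium (Hep-Med) that also held dexamethasone, a glucocorticoid, and the Notch inhibitor DAPT. A second table covers cholangiocyte organoids (Cho-Orgs), grown from EpCAM-positive cells in a medium of their own, with 3 libraries at each of the passages P0, P5 and P10. The third holds Smart-Seq libraries of Hep-Orgs picked by their shape at P0, 1 library for each shape (round-like, intermediate, grape-like). By the paper's account these grew in Hep-Med, and DAPT and dexamethasone came with a later refinement of that medium.

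Nuclear receptors are transcription factors, most of which are switched by small lipid-soluble ligands. Many of those of the liver bind DNA as pairs with RXRα, the product of Rxra, so that bile acids (Nr1h4, which encodes FXR), oxysterols (Nr1h3, LXRα), drugs and other foreign compounds (Nr1i2, PXR, and Nr1i3, CAR), thyroid hormone (Thrb) and vitamin D (Vdr) all act through a shared partner. Nr0b2 encodes SHP, a receptor-like repressor without a DNA-binding domain that FXR induces and that lowers bile acid synthesis. Rora binds DNA alone and feeds into clock and lipid genes, and Esr1 encodes the estrogen receptor ERα.

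Levels are given in FPKM, fragments scaled to the length of the gene and to the depth of the library, as the authors computed them for each table. FPKM is per length, so it can be read between genes within a library. The 3 tables were normalized separately, so values from different tables are set side by side only as a description. The hepatocyte libraries held 14068906 to 27160365 fragments on genes, the Cho-Orgs libraries about 37467796 to 39926192 and the Smart-Seq libraries about 40035110 to 40375837. Groups were compared with limma on log2(FPKM + 1) over genes at 1 FPKM or more in at least 3 libraries of a table, two-sided, with Benjamini-Hochberg adjustment within each comparison. A gene was called at an adjusted p under 0.05. Adding 1 before taking the logarithm understates the change of genes with low values. The study's methods describe the replicates as independent cultures, and the p-values measure the spread between these libraries. The libraries labelled primary hepatocytes did not look like hepatocytes: Alb, the serum albumin gene, stood at 112 ± 7.99 FPKM and Krt19, a bile duct keratin, at 237 ± 6.66 FPKM (SD, n = 3), against 111 and 240 FPKM in Hep-Orgs P10. In bulk libraries, fewer cells of a type and less RNA per cell cannot be told apart.

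In Cho-Orgs, Nr1h4, Nr0b2, Nr1i2, Nr1h3 and Rxra fell between P0 and P5, while Vdr was not called. Of the 6 members that passed the filter on low values, 5 were lower at P5 than at P0 and 0 were higher. Over all 11593 genes tested in this comparison, 22.6% were called lower and 34% higher, in all 2621 and 3938 genes. With median-ratio size factors in place of the FPKM scale that split was 3449 lower and 3087 higher, and 6 members were lower, Vdr being the added one. Between P5 and P10, 1 member fell (Nr0b2) and 2 rose (Nr1h3 and Vdr), with 30.5% of all genes called lower and 31% higher. From P0 to P10, 5 of the 6 were lower and 1, Vdr, was higher, against 31.3% and 41% of all genes. The median log2 change of the 6 was -1.20 from P0 to P5, 0.03 from P5 to P10 and -0.89 from P0 to P10, where the medians over all genes were 0.06, 0.01 and 0.07. Nr1i3, Esr1, Thrb and Rora did not reach the filter. The filter keeps a gene that is high in a single group, as with Nr1i2, which passed through its P0 libraries alone. Nr0b2 and Nr1h3 also needed their P0 libraries to pass, so the filter shaped these counts and medians. With the filter lifted, Esr1 was called higher and Rora lower from P0 to P5 (limma adjusted p = 2.1e-05 and 0.00884). These 3 comparisons share libraries, so their counts are not independent.

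**Figure D1:**
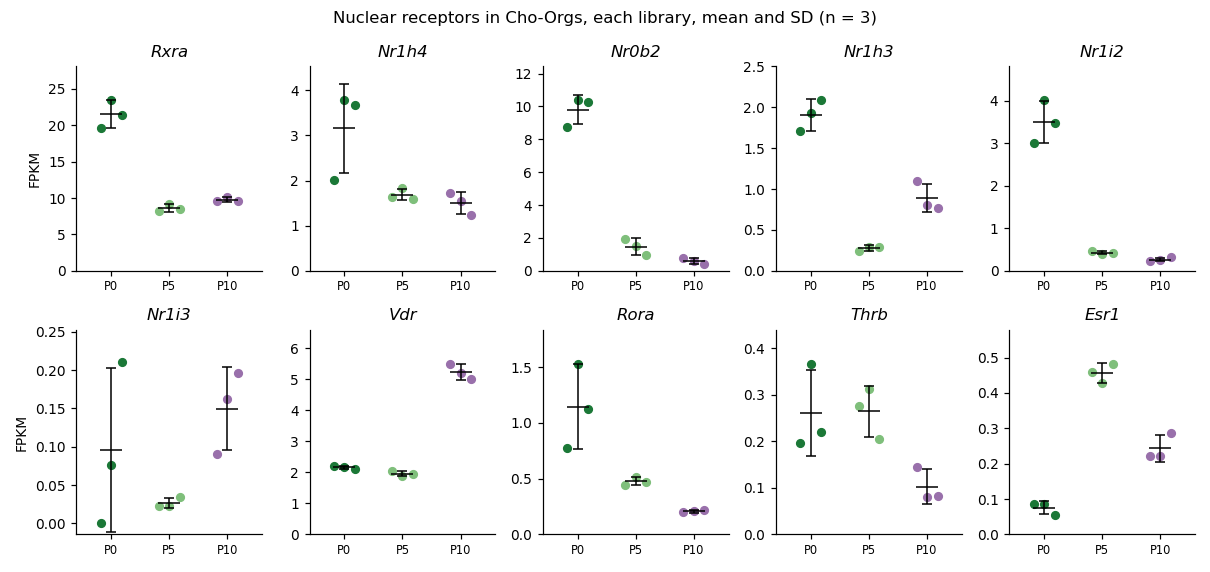
FPKM of each of the 10 members in the 9 Cho-Orgs libraries. Points are libraries, and the bar with its whiskers is the mean and SD of the 3 libraries of a passage. Nr0b2, Nr1i2 and Rxra are highest at P0, Vdr is highest at P10 and Esr1 is highest at P5.

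Nr1h4, the bile acid receptor FXR, had 2.01, 3.78 and 3.67 FPKM in the 3 libraries at P0, 1.63, 1.83 and 1.60 at P5, and 1.71, 1.55 and 1.23 at P10. Every P0 library was above every later one, although the first P0 library lay near them, and the P5 and P10 libraries overlapped. The log2 change was -0.60 (SE 0.162) from P0 to P5, with a limma Benjamini-Hochberg adjusted p of 0.0102. From P0 to P10 it was -0.71 (SE 0.162, limma adjusted p = 0.00289), and from P5 to P10 -0.11 (limma adjusted p = 0.586).

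Nr0b2, the SHP repressor that FXR induces, fell furthest. It had 8.77, 10.4 and 10.3 FPKM at P0, then 1.96, 1.51 and 0.937 at P5, and 0.757, 0.583 and 0.437 at P10. No group overlapped another, and each later passage lay below the one before. The mean dropped 6.67-fold from P0 to P5 (log2 change -2.15, SE 0.145, limma adjusted p = 2.09e-06) and 2.48-fold from P5 to P10 (log2 change -0.62, limma adjusted p = 0.00448). From P0 to P10 the mean was 16.6-fold lower. Nr1h4 itself was 2.11-fold lower over the same passages.

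The list of 11 FXR targets held 2 genes above the filter, Nr0b2 and Fgf15, the enterocyte hormone that signals bile acid supply to the liver. Fgf15 rose from 1.71 ± 0.439 FPKM at P0 to between 5.34 and 7.98 FPKM at P5 (3.67-fold, limma adjusted p = 3.69e-05) and fell back to 1.77 ± 0.179 at P10 (SD, n = 3; limma adjusted p = 3.88e-05 against P5 and 0.821 against P0). It thus rose in the step in which Nr1h4 and Nr0b2 fell. Abcb4, the phospholipid pump of the canaliculus, was just short of the filter with 1.35, 0.976 and 1.15 FPKM at P0, and its mean was 0.0376 FPKM at P5 and 0.0275 at P10, on 2 to 10 fragments a library. A detection floor was set at 3 fragments in a library. At P0, 2 of the 11 genes were at or under that floor in every library, namely Cyp7a1 and Cyp8b1, the enzymes that start and shape bile acid synthesis. At P5 there were 5 such genes and at P10 there were 8, both counts including Cyp7a1, Cyp8b1 and Slc10a1. The list pools genes of bile acid synthesis, which SHP lowers, with genes that FXR induces. These counts therefore give no direction of FXR action. The bile acid transporter gene Slc51b had 0.463, 3.59 and 1.31 FPKM at P0 and was at least 10.9-fold lower at P10, measured against the floor of 3 fragments per library, or at least 5.41-fold without P0 replicate 2. Slc51a had 0.0162, 0.373 and 0.531 FPKM at P0, the first on 1 fragment, and was at least 5.92-fold lower, or 3.75-fold without P0 replicate 3. The bounds were 3.87-fold for Abcb11 (2.51 without P0 replicate 1) and 7.36-fold for Slc27a5, which activates bile acids for conjugation (5.08 without P0 replicate 1).

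The xenobiotic sensors were low. Nr1i2, which encodes PXR, had 3.01, 4.02 and 3.47 FPKM at P0, 0.461, 0.388 and 0.416 at P5, and 0.233, 0.247 and 0.316 at P10. The groups did not overlap. The mean was 8.3-fold lower at P5 than at P0 (log2 change -1.66, SE 0.0891, limma adjusted p = 4.38e-07) and 13.2-fold lower at P10 (limma adjusted p = 7.9e-08), while the step from P5 to P10 was not called (log2 change -0.17, limma adjusted p = 0.128). Nr1i2 passed the filter through its P0 libraries alone, the group where it is high. With the filter lifted, the limma adjusted p against P0 was 7.94e-06 at P5 and 1.86e-06 at P10. Nr1i3, which encodes CAR, was barely detected: its 3 libraries held 0, 7 and 19 fragments at P0, 2, 2 and 3 at P5, and 8, 14 and 17 at P10. The P0 range spanned both later groups, and with the filter on low values lifted no comparison was called. The libraries of P5 and P10 did not overlap (limma adjusted p = 0.0991, and 0.0482 with the replicate block, the test lifting the filter and adding the block together).

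Genes that PXR and CAR induce did not move as a block. Of 13 listed, 11 were tested from P0 to P10, of which 4 rose, 6 fell and 1 was not called, beside 41% of all genes higher and 31.3% lower. Their median log2 change was -0.52 against 0.07 over all genes. Cyp3a11, the main drug-oxidizing cytochrome of mouse liver and a PXR target, had 82.4 ± 59.6 FPKM at P0 and was listed at 0 in the P10 libraries (log2 change -6.11, limma adjusted p = 6.96e-07). Abcc2, an export pump of the bile canaliculus, went from 11.6 ± 1.8 to 0.0297 ± 0.0162 FPKM, a 391-fold drop of the mean. Gstm3, a glutathione transferase, fell by 1.96 on the log2 scale. Cyp2b10, the classic CAR target, instead rose from 2.03 ± 0.692 to 9.12 ± 0.239 FPKM (log2 change 1.76, limma adjusted p = 2.01e-06). Cyp3a13 rose from 0.934 to 3.44 FPKM and Abcc3, a basolateral export pump, from 153 to 216 FPKM. Cytochromes of the 2b and 3a families have close paralogs, so reads may be split among them.

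Nr1h3, the oxysterol receptor LXRα, fell and then came back in part. Its libraries had 1.70, 1.93 and 2.09 FPKM at P0, 0.240, 0.297 and 0.296 at P5, and 1.09, 0.810 and 0.774 at P10. The 3 passages did not overlap, with P10 between P0 and P5. The log2 change was -1.19 from P0 to P5 (SE 0.0879, limma adjusted p = 3.78e-06) and 0.56 from P5 to P10 (limma adjusted p = 0.000386), which left the P10 mean 2.14-fold below that of P0. Nr1h2, which encodes the broadly expressed LXRβ, stood higher than Nr1h3 throughout and rose from 24.7 ± 1.47 FPKM at P0 to 33.8 ± 0.849 at P10 (log2 change 0.44, limma adjusted p = 3.58e-05).

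Of 10 genes that LXR induces, 7 were tested from P0 to P10: 1 rose, 5 fell and 1 was not called, beside 41% of all genes higher and 31.3% lower. The median log2 change of the 7 was -0.61, against 0.07 over all genes. Abca1, the cholesterol efflux pump, fell from 6.86 ± 0.825 to 0.454 ± 0.0781 FPKM, 15.1-fold in the means (log2 change -2.43, limma adjusted p = 1.28e-08). Scd1, a fatty acid desaturase, fell from 370 to 74.1 FPKM, and Smpdl3a, a secreted phosphodiesterase, from 16.5 to 2.62 FPKM. The sterol exporters Abcg5 and Abcg8, too low for the filter, were at least 33.1-fold and 38.3-fold lower at P10, against the floor of 3 fragments per library. Mylip, which marks the LDL receptor for destruction, rose from 0.319 ± 0.12 to 1.82 ± 0.0983 FPKM (log2 change 1.10). From P5 to P10, where Nr1h3 rose, 4 of the 7 tested targets fell and 1 rose, beside 30.5% and 31% of all genes.

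Rxra, the shared partner, was the most abundant of the 10 members at every passage. It had 19.7, 23.5 and 21.4 FPKM at P0, 8.16, 9.24 and 8.48 at P5, and 9.60, 10.2 and 9.54 at P10. All P0 libraries were above all later ones, and the P10 libraries lay just above those of P5. The mean was 2.49-fold lower at P5 (log2 change -1.22, SE 0.0709, limma adjusted p = 7.26e-07). The rise from P5 to P10 was 0.16 on the log2 scale with a limma adjusted p of 0.069, and of 0.0314 when the replicate number was added to the fit as a block. Rxrb, the gene of the RXRβ partner, moved the other way and rose from 17.6 ± 0.723 FPKM at P0 to 29.7 ± 1.05 at P10 (log2 change 0.72, limma adjusted p = 2.17e-06).

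Vdr, the vitamin D receptor, was the only tested member higher at P10 than at P0. Its libraries had 2.21, 2.16 and 2.11 FPKM at P0, 2.04, 1.87 and 1.94 at P5, and 5.50, 5.19 and 5.01 at P10. The P10 libraries stood well apart, and those of P5 lay slightly below those of P0. From P5 to P10 the mean rose 2.68-fold (log2 change 1.08, SE 0.0579, limma adjusted p = 4.61e-07). The change from P0 to P5 was -0.10 on the log2 scale, with a limma adjusted p of 0.176. Of 5 genes that vitamin D induces or that act on it, 1 was tested. It was S100g, the intestinal calcium-binding protein, at 1.55 ± 0.572 FPKM at P0, 0.675 ± 0.509 at P5 and 2.3 ± 0.311 at P10. It rose from P5 to P10 (log2 change 1.02, limma adjusted p = 0.00252), the step in which Vdr rose. From P0 to P5 it was lower (limma adjusted p = 0.0335, and 0.0584 with the replicate block), with libraries that overlapped, and P10 was not called against P0 (limma adjusted p = 0.124). Cyp24a1, the enzyme that breaks down active vitamin D, averaged 0.0127 FPKM at P0 and 0.0107 at P10.

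**Figure D2:**
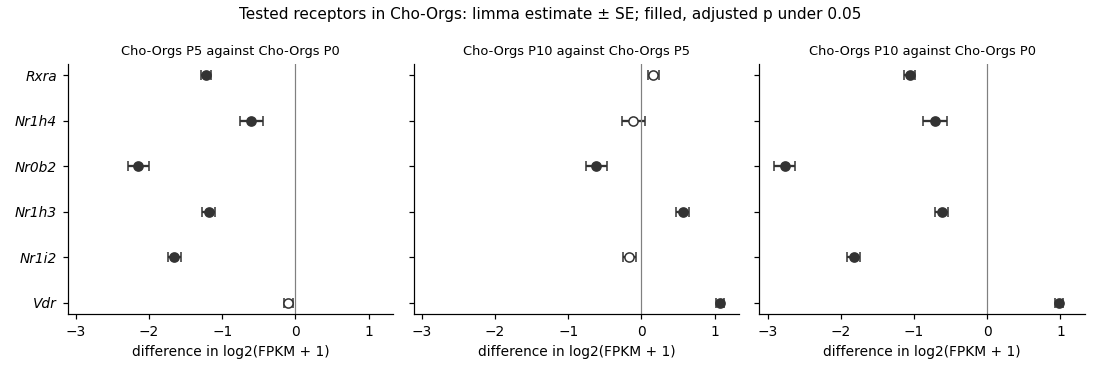
log2 fold change in FPKM + 1 of the 6 members above the filter in the 3 Cho-Orgs comparisons. Points are limma estimates, the whiskers are 1 SE to each side, filled points have an adjusted p under 0.05, and the line at 0 marks no change. Nr0b2 lies lowest, at -2.77 from P0 to P10, and Vdr is the highest, at 1.08 from P5 to P10.

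Rora, Esr1 and Thrb did not reach 1 FPKM in 3 libraries, and their fits come from the same model with that filter lifted. Rora, the clock-linked receptor RORα, had 0.770, 1.53 and 1.13 FPKM at P0, 0.444, 0.515 and 0.473 at P5, and 0.198, 0.208 and 0.223 at P10. Each passage lay below the one before without overlap, and the P10 mean was 5.46-fold below that of P0 (log2 change -0.81, limma adjusted p = 0.00059). Esr1 went up and partly back, with 0.0859, 0.0858 and 0.0555 FPKM at P0, 0.459, 0.428 and 0.483 at P5, and 0.222, 0.222 and 0.286 at P10. Its 3 passages did not overlap either. The mean was 6.03-fold higher at P5 than at P0 (limma adjusted p = 2.1e-05) and 3.21-fold higher at P10 (limma adjusted p = 0.000391). Thrb, a thyroid hormone receptor, had 0.196, 0.367 and 0.219 FPKM at P0, 0.276, 0.312 and 0.204 at P5, and 0.145, 0.0802 and 0.0821 at P10. Its P10 libraries were below all others, 2.54-fold in the mean against P0 (limma adjusted p = 0.0251), while P0 and P5 overlapped.

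Target genes of these 3 receptors were few from P0 to P10, where 41% of all genes rose and 31.3% fell. Among 6 listed thyroid hormone targets, 5 were tested, of which 3 rose and 1 fell. Klf9 rose from 9.18 to 16.4 FPKM, Bcl3 from 17.5 to 21.9 FPKM and Me1, the malic enzyme, from 85 to 96.2 FPKM. Thrsp, a lipogenic gene named for its response to thyroid hormone, was at least 97.6-fold lower. Among 8 listed RORα targets, 5 were tested, with 1 higher and 2 lower. G6pc, the enzyme that releases free glucose, was at least 153-fold lower at P10, and the clock repressor Nr1d1 went from 23.8 to 11.6 FPKM while Clock rose from 4.88 to 6.65 FPKM. Of 5 listed ERα targets, 2 were tested and 1 fell. This was Tff1, a secreted mucosal peptide, which was 329-fold lower at P10 than at P0 and fell at both steps. Cish, a brake on cytokine signalling, rose from P0 to P5 (log2 change 0.53, limma adjusted p = 0.00394) and fell from P5 to P10 (log2 change -0.79, limma adjusted p = 0.000325). Esr1 was likewise highest at P5.

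Levels within Cho-Orgs changed order with passage. At P0, Rxra and Nr0b2 led without overlap, followed by Nr1i2, Nr1h4 and Vdr, whose libraries overlapped from neighbour to neighbour, then Nr1h3 and Rora, and last Thrb, Nr1i3 and Esr1, which overlapped. At P5 the order was Rxra, Vdr, Nr1h4 and Nr0b2, the last pair overlapping, followed by an overlapping run of Rora, Esr1 and Nr1i2, then Nr1h3 with Thrb, and Nr1i3. At P10 it was Rxra, Vdr, Nr1h4, Nr1h3 and Nr0b2 with no overlap between neighbours, followed by Nr1i2, Esr1 and Rora, which overlapped, and by Nr1i3 with Thrb. Nr0b2 thus moved from the second place to the fifth, and Vdr from the fifth to the second.

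The summed level of hepatocyte genes fell at both steps. Of the members called lower from P0 to P5, only Nr0b2 was called lower again from P5 to P10, and Nr1h3 rose. The summed level of 10 hepatocyte markers was 9118 to 10631 FPKM in the P0 libraries, 524 to 619 at P5 and 171 to 181 at P10. Of the 9 markers tested from P0 to P10, 8 fell, and Cps1 and Cyp2e1 were at 0 in all libraries of P5 and P10. The exception was Hnf4a, which encodes the hepatocyte nuclear receptor HNF4α, at 64.3 ± 10.6 FPKM at P0 and 56.4 ± 2.1 at P10 (limma adjusted p = 0.128). The summed level of 10 cholangiocyte markers was 5757 to 7115 FPKM at P0, 4054 to 4260 at P5 and 3968 to 4014 at P10, with none at 0. Of these 10, 3 rose from P0 to P10, 4 fell and 3 were not called, where 41% of all genes rose and 31.3% fell. The mean of Krt7 went from 248 FPKM at P0 to 920 at P10, and that of Krt19 from 1045 to 1402. The 8 stellate cell markers summed to 60.8 to 75.7, 7.54 to 8.37 and 0.174 to 0.239 FPKM at P0, P5 and P10, with Acta2 and Dcn at 0 in all libraries of P5 and P10. Of these 8, 7 averaged under 1 FPKM at P0, so the sum there rests on 1 gene. Macrophage markers summed to 43.1 to 48.9, 72.1 to 77.3 and 10.1 to 10.5 FPKM, and Cd68 alone had means of 30.4, 74.5 and 9.53 FPKM. Adgre1, Lyz2, Ptprc, C1qa and Marco were at 0 in all P5 libraries, Lyz2 falling there from 13.2 FPKM at P0, and Clec4f, a Kupffer cell lectin, was at 0 in all 9 libraries. Sinusoidal endothelial markers summed to 0.655 to 1.67, 9.48 to 16.6 and 1.02 to 1.56 FPKM, with Tek alone at means of 0.842, 13.2 and 0.878 FPKM and Clec4g at 0 in all 9 libraries. The part of these cell types in the receptor levels was not tested.

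The wider receptor family and its cofactors moved in both directions. Of 37 other nuclear receptors, 23 were tested from P0 to P10, with 9 higher, 9 lower and 5 not called, beside 41% higher and 31.3% lower over all genes, and a median log2 change of 0.01. Whether they differ from the members was not tested. Nr4a1, an immediate early orphan receptor, dropped from 32 ± 21.6 to 3.14 ± 0.288 FPKM, Nr5a2, which drives bile acid genes and Nr0b2, from 16.4 ± 1.86 to 5.19 ± 0.261 FPKM, and Nr1d1 as given above. Rarg, a retinoic acid receptor, rose from 7.9 to 16.4 FPKM and the orphan receptor Nr2c1 rose by a log2 change of 0.85. Of 14 coregulators, 12 were tested, with 6 higher, 2 lower and 4 not called, and the median was 0.21. The coactivator genes Ncoa3, Carm1 and Crebbp rose by log2 changes of 0.69, 0.67 and 0.41, while Hdac3, part of the corepressor complex, and Ncoa1 were lower by log2 changes of -0.28 and -0.26.

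**Figure D3:**
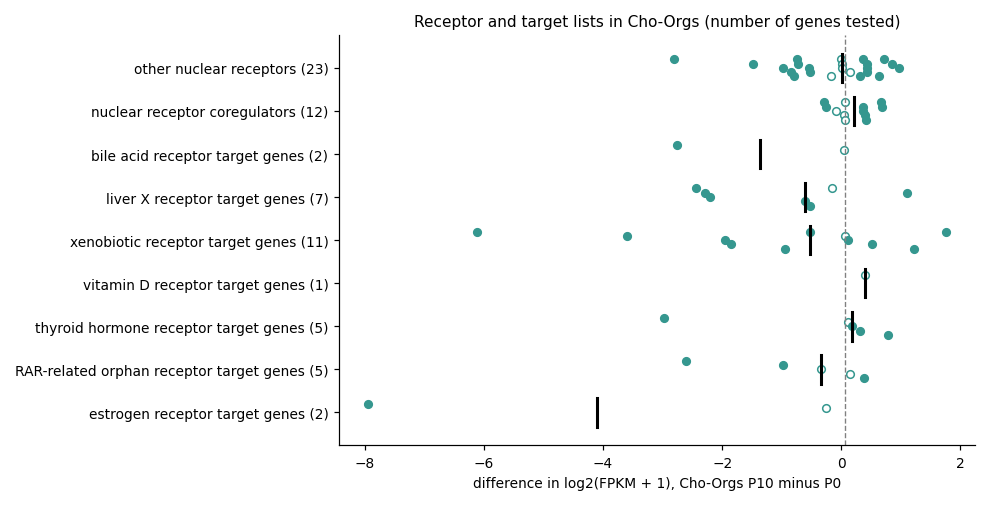
log2 fold change in FPKM + 1 from P0 to P10 in Cho-Orgs for the tested genes of each list. Each point is a gene and the bar is the median of its list. The LXR target median, -0.61, lies below 0, and the medians of the other nuclear receptors and coregulators are 0.01 and 0.21. The lowest medians, -4.10 for ERα targets and -1.36 for FXR targets, rest on 2 tested genes each.

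The start regions of members that moved in different directions were read for the hexamer that receptors of this family share. Windows ran from 250 bases before to 50 bases after each RefSeq start on GRCm38.p6, 14 windows for the 10 members. The half-site AGGTCA, on either strand (reverse TGACCT), was present in 3 of the 14 windows and in 16.3% of 32851 mouse windows of the same 300 bases. The 3 windows were those of Nr1h4, of a downstream start of Rxra and of a start of Thrb. The other Rxra window, chr2:27676951-27677250, held no half-site and is not printed below. The extended half-site CAAGGTC (reverse GACCTTG), which overlaps the first when followed by A, was in 0 of the 14 and in 3.96% of all windows. Direct repeats of AGGTCA spaced by 1 to 5 bases were in 0 of the 14 (0.0791% of all windows), as was the inverted repeat spaced by 1 base (0.00913%). A match of letters is a description and not a bound site. The 4 windows below belong to the FXR gene and its induced repressor, and to the partner gene that fell and the receptor gene that rose, 5′ to 3′ along the gene, with half-sites in capitals.
Nr1h4, chr10:89506609-89506908, reverse strand: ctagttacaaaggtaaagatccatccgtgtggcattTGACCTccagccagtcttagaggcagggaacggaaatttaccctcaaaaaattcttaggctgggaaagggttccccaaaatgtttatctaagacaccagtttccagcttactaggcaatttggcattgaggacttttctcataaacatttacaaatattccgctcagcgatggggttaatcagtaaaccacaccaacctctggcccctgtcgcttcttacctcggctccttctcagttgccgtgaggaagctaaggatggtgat
Nr0b2, chr4:133553126-133553425, forward strand: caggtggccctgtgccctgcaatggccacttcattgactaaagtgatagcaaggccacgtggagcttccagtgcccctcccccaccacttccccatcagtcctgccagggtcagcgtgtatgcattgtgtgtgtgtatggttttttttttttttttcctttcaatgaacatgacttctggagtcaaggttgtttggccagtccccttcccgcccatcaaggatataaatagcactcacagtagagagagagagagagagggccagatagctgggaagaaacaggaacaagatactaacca
Rxra, chr2:27709042-27709341, forward strand: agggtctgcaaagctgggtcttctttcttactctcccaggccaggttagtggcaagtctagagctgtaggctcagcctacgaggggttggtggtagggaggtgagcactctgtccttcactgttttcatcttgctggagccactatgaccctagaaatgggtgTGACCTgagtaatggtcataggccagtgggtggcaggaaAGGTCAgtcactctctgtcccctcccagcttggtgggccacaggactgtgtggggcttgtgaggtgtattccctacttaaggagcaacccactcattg
Vdr, chr15:97908247-97908546, reverse strand: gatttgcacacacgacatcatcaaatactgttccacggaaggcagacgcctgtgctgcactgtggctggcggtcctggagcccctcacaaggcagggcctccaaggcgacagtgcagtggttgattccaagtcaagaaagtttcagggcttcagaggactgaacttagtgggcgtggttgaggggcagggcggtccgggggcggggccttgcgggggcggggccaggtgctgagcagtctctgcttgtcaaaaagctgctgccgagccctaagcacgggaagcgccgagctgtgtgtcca
In the Nr1h4 window the capitals begin 214 bases before the start, on the reverse strand. In the Rxra window they begin 87 bases before the start on the reverse strand and 48 bases before it on the forward strand. The Nr0b2 and Vdr windows hold neither hexamer. By the positions listed in the hepatocyte table, the Nr1h4 gene spans chr10:89454234-89533585, Rxra chr2:27676440-27762957 and Vdr chr15:97854425-97910630, so these 3 windows lie at internal starts within the gene. The Nr0b2 window reaches 50 bases into its gene at chr4:133553376-133556536.

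In the hepatocyte table the members hardly varied. With all 9 Hep-Orgs libraries set against the 3 labelled primary hepatocytes, 0 of the 7 members above the filter were called (limma, Benjamini-Hochberg), 0 at an unadjusted p under 0.05, and 0% of 10986 genes were called. By limma-voom on recovered fragments 0 members were called and 2 had an unadjusted p under 0.05, where 12 genes were called in all. Against Pri-Hep, 0 members were called at P1 and 0 at P5, where 0.0091% of all genes (1 gene) was called in each, and 0 at P10, where 0% was called. Between P10 and P1, 0 members and 0% of genes were called. At an unadjusted p under 0.05 the members numbered 0 at P1, 1 at P5 (Rxra), 0 at P10 and 0 for P10 against P1, and limma-voom called 0 in each, where it called 30, 39, 0 and 29 genes in all. Over these 5 comparisons the members' log2 changes lay between -0.20 and 0.09, with standard errors of at most 0.12.

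**Figure D4:**
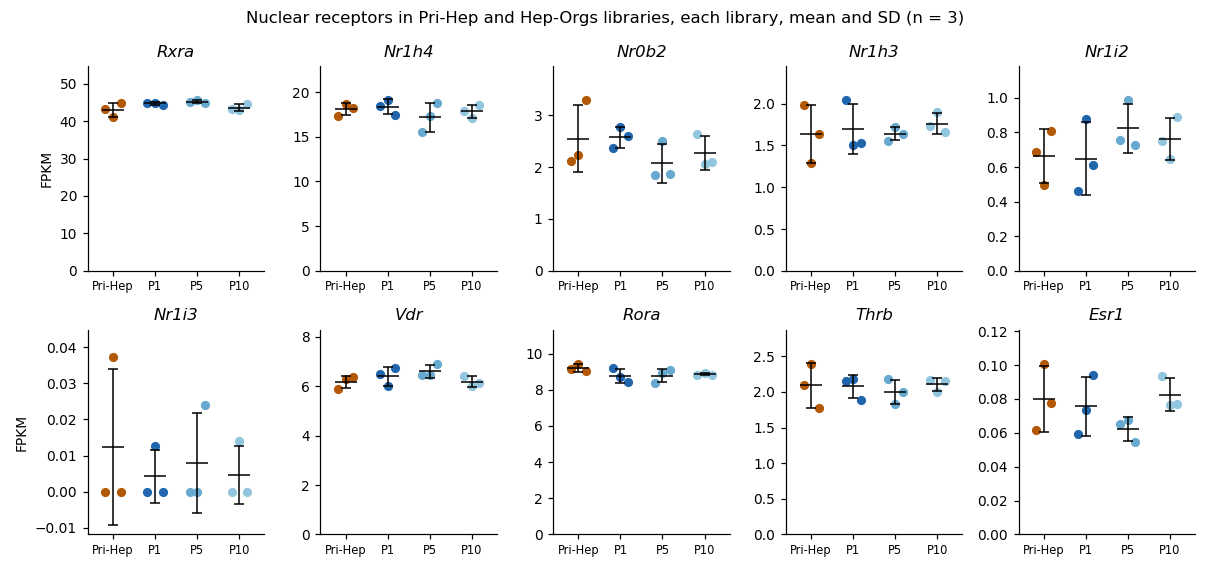
FPKM of each of the 10 members in the 12 libraries of the hepatocyte table. Points are libraries, and the bar with its whiskers is the mean and SD of the 3 libraries of a group. The groups of the 7 members above the filter lie close together, with Rxra between 41 and 45.6 FPKM in all 12 libraries.

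Rxra again led, with 43.2, 41.0 and 44.7 FPKM in the Pri-Hep libraries, 44.8, 44.9 and 44.4 at P1, 45.1, 45.6 and 45.0 at P5, and 43.2, 43.0 and 44.7 at P10. The P5 libraries were above every Pri-Hep library by a narrow margin, and the other passages overlapped Pri-Hep. Nr1h4 had 17.4, 18.7 and 18.2 FPKM in Pri-Hep, 18.5, 19.1 and 17.5 at P1, 15.5, 17.3 and 18.7 at P5, and 17.8, 17.2 and 18.6 at P10. All 4 groups of Nr1h4 overlapped. Nr0b2 had 2.12, 2.24 and 3.29 FPKM in Pri-Hep, 2.37, 2.76 and 2.59 at P1, 1.85, 2.50 and 1.87 at P5, and 2.64, 2.06 and 2.11 at P10. The third Pri-Hep library held the highest Nr0b2 value, and the groups overlapped.

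Over all 12 libraries Rora ran from 8.35 to 9.44 FPKM with a median of 8.93, and Vdr from 5.89 to 6.92 with a median of 6.4. Thrb ran from 1.77 to 2.4 FPKM (median 2.13) and Nr1h3 from 1.29 to 2.04 (median 1.65). Nr1i2 ran from 0.46 to 0.988 FPKM, Esr1 from 0.0543 to 0.101, and Nr1i3 from 0 to 3 fragments, all 3 too low for the filter. The spread over the 12 libraries, as the SD in percent of the mean, was 2.92% for Rxra and 17.6% for Nr0b2. Without overlap with Pri-Hep were the P5 libraries of Rxra and Vdr, which were higher, and the P10 libraries of Rora, which were lower, and none of the 3 was called. Of all genes tested, 7.7% lay higher and 7.42% lower without overlap at P5, and 5.44% higher and 5.49% lower at P10. The order of the means was the same in Pri-Hep and at P1, P5 and P10, from Rxra through Nr1h4, Rora, Vdr, Nr0b2, Thrb, Nr1h3, Nr1i2 and Esr1 to Nr1i3. Neighbours overlapped only between Nr0b2 and Thrb and between Thrb and Nr1h3, each in some groups.

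The related lists were as flat. Of 106 distinct genes in the 9 lists of other receptors, coregulators and target genes, 59 were tested, 0 were called with all Hep-Orgs set against Pri-Hep (limma), and 4 had an unadjusted p under 0.05. Cyp7a1, Cyp8b1, Slc51a, Slc51b, Abcb11 and Slc27a5 were at or under 3 fragments in every library of all 4 groups. Hepatocyte markers summed to 561 to 621 FPKM over the 12 libraries and cholangiocyte markers to 4041 to 4260, and 0 of either list were called (limma, all Hep-Orgs against Pri-Hep). Set beside the other table, Rora at 8.35 to 9.44 FPKM was above the 0.198 to 1.53 FPKM of the 9 Cho-Orgs libraries, and Nr1h4 at 15.5 to 19.1 FPKM above their 1.23 to 3.78. These tables were normalized separately and the difference was not tested. They also divide by different gene lengths, for Rora 13071 bases in the hepatocyte table and an estimated 19648 in Cho-Orgs, and for Nr1h4 2303 and 2569.

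The 3 Smart-Seq libraries had 1 library per shape, so there is no replicate error and no test. A gene counts as higher or lower there when the log2 ratio of FPKM + 1 is at least 1 in size, and intervals are exact 95% intervals that cover counting error only, with PCR duplicates not removed by molecular identifiers. Between grape-like and round-like organoids 2 members were higher, Nr1h3 and Rxra, and 1 was lower, Vdr, against 12.9% and 8.82% of the 12595 genes at 1 FPKM or more in a library. Between intermediate and round-like organoids 2 were higher, Nr1i2 and Nr0b2, and 0 lower, against 3.85% and 2.54% of genes. Between grape-like and intermediate organoids 0 were higher and 2 lower, again Nr1i2 and Nr0b2, against 9.71% and 7.15% of genes.

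Nr1h3 had 26.2 FPKM in grape-like, 16.6 in intermediate and 9.93 in round-like organoids, and Rxra had 44.3, 34.8 and 17.4 FPKM in the same order. Both receptor genes fell off from the grape-like to the round-like library. The grape-like to round-like ratio of Nr1h3 was 2.63 (95% interval 2.44 to 2.85), and that of Rxra was 2.55, without an interval because its fragment counts could not be recovered. Vdr ran the other way, with 1.74, 4.25 and 4.83 FPKM. Nr1h4, Nr0b2 and Nr1i2 peaked in the intermediate library. Nr1h4 had 7.18, 9.57 and 4.39 FPKM, Nr0b2 5.42, 23.1 and 9.04, and Nr1i2 1.92, 6.04 and 0.487. The PXR gene Nr1i2 thus spanned the widest range of the 3, with an intermediate to round-like ratio of 12.4 (95% interval 9.37 to 16.7). For Nr0b2 that ratio was 2.56 (2.3 to 2.85).

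The remaining members were low. Thrb had 0.538, 0.341 and 0.156 FPKM and Rora 0.456, 0.652 and 0.328. Esr1 rested on 125, 36 and 21 fragments and Nr1i3 on 0, 13 and 6. Rora was thus below the 8.35 FPKM that was its lowest value in the bulk hepatocyte table, which was normalized separately and over a different gene length. The Hep-Orgs of that table were of later passages, grew with DAPT and dexamethasone and were sequenced by another library protocol.

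**Figure D5:**
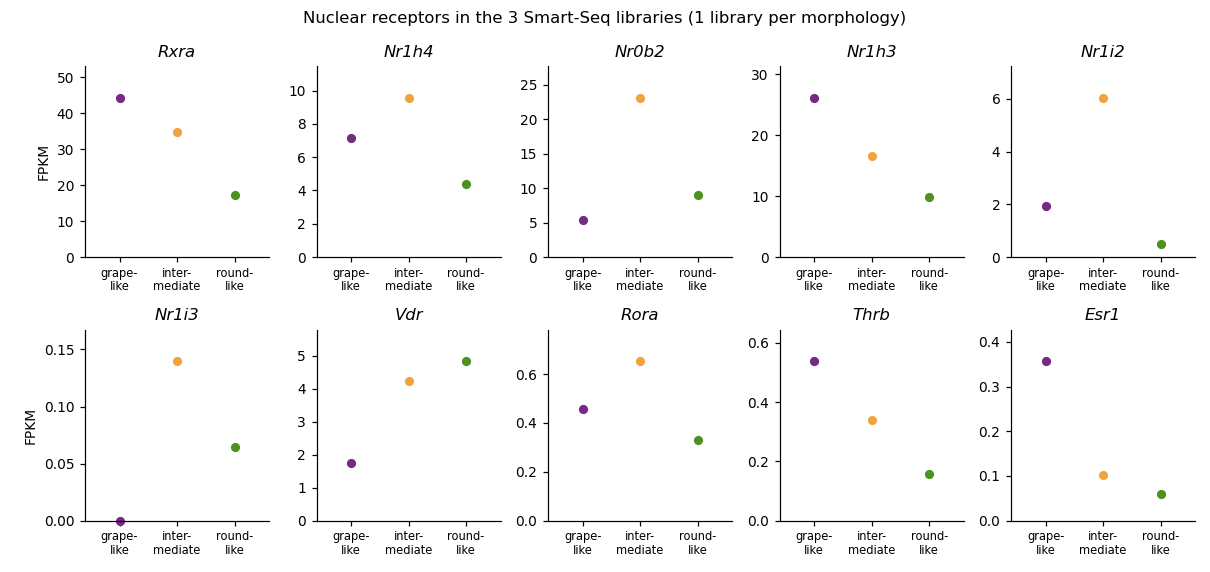
FPKM of the 10 members in the 3 Smart-Seq libraries, from grape-like on the left to round-like on the right. Each point is a library, so no error is drawn. Rxra and Nr1h3 are highest in the grape-like library, Nr0b2 and Nr1i2 in the intermediate library and Vdr in the round-like library.

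Several target lists were higher in the grape-like library. Of 10 LXR targets at 1 FPKM or more, 8 were higher than in the round-like library and 0 lower, with a median log2 ratio of 2.11 where the median of all genes was -0.13. Abca1 had 36.2, 19.4 and 6.35 FPKM in grape-like, intermediate and round-like organoids, and Pltp, a phospholipid transfer protein, 36.6, 11.4 and 7.91. Of 11 PXR and CAR targets, 7 were higher in grape-like and 8 in intermediate than in round-like organoids, and 0 were lower in either. Cyp3a11 had 251, 123 and 14.1 FPKM and Cyp2b10 7.87, 3.82 and 0.0793. Of 4 bile acid receptor targets, 3 were higher in grape-like organoids, among them Abcb11, the bile salt export pump, with 3.87, 0.93 and 0.203 FPKM. Of 5 thyroid hormone targets 1 was higher and 2 lower in grape-like than in round-like organoids (median log2 ratio -0.30). Of 2 genes of the vitamin D list 1 was higher and 0 lower (median 0.78), where Vdr itself was lower. The higher gene was Cyp2r1 (log2 ratio 1.05), listed as acting on vitamin D, while S100g, at 0.52, did not reach the cut. Of 8 RORα targets 2 were higher and 0 lower, and 0 of the ERα targets reached 1 FPKM. Other nuclear receptors stayed near the background, with 2 of 23 higher and 2 lower in grape-like than in round-like organoids.

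Markers of several cell types differed between the 3 libraries beside these values. Macrophage markers, led by Lyz2, summed to 8261, 2462 and 1314 FPKM in grape-like, intermediate and round-like organoids. Stellate cell markers summed to 1362, 351 and 303 FPKM and sinusoidal endothelial markers to 75.7, 31.7 and 13.2. All of these sums had the same order as Nr1h3, Rxra, Thrb and Esr1. Hepatocyte markers summed to 6618, 12387 and 1987 FPKM, the same order as Nr1i2, Nr1h4 and Rora. Cholangiocyte markers summed to 913, 3655 and 3141 FPKM, the same order as Nr0b2. No marker of the 5 lists was at 0 in any of the 3 libraries. Their part in the receptor levels was not tested.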

How the data were processed

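mRNA was sequenced in 12 libraries of the hepatocyte table, 9 Cho-Orgs libraries and 3 Smart-Seq libraries. The deposited files hold FPKM, which the authors computed per gene and library. The submitters' processing notes name mm10, featureCounts 2.0.3 and edgeR 3.40.2 without role or order, and the aligner is not given in the sources used here. In the hepatocyte table, FPKM times the listed gene length gave whole multiples of 1 step per library, from which fragments were recovered. In the other tables lengths and depths were estimated from low values, and fragments are given for genes with a recovered length.

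FPKM was tested with limma 3.58.1 (lmFit, eBayes with trend) in R 4.3.3 on log2(FPKM + 1), with all groups of a table in the fit, for 5 comparisons in the hepatocyte table and 3 in Cho-Orgs. Tables were read and drawn with Python 3.11.15, pandas 2.3.3, numpy 2.4.6, scipy 1.17.1 and matplotlib 3.10.9. The model was tested on simulated data first. With 3 libraries against 3 an exact permutation test cannot go below p = 0.1, so none was used. No hepatocyte library pair agreed within counting error (chi-square per degree of freedom 1.95 to 3.2 within groups and 1.83 to 4.65 between groups). Each library counted as 1 replicate. This spread cannot tell separate cultures from repeat libraries of 1 culture, so it does not show that the libraries are independent.

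The study numbers 3 mice in the replicate labels, so same-numbered libraries may share an animal, a pairing that the main fits leave out. Their deviations from the group means correlated between -0.0741 and 0.119 in Cho-Orgs and between -0.0763 and 0.0548 in the hepatocyte table, against -0.124 to 0.093 and -0.0889 to 0.0931 for different numbers. The fit with the replicate number as a block was an alternative. Others were a pseudocount of 0.1, no filter, a mean FPKM of at least 5, rescaling to TPM or by median-ratio size factors, no trend in eBayes, limma-voom on recovered fragments in the hepatocyte table, fits of the compared groups alone, and each library left out in turn.

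All 10 members are named. Of each list, genes are named by the largest changes past the threshold from P0 to P10 in Cho-Orgs (up to 3 in each direction), the highest means (up to 2), or a group at or under 3 fragments, and a selection of these is printed. The members and lists were chosen with earlier results of these data known. Listed Tf and Arntl were matched to Trf and Bmal1 where a table uses these symbols.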

Additional observations from a re-analysis of the deposited data

Results flagged for a closer look

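Between P5 and P10, 3 members moved in opposite directions in the 2 kinds of organoids, with every P10 library on the same side of every P5 library in each. Of the 15460 genes above 0 in both tables, 855 (5.53%) did the same. The ratio of the mean FPKM at P10 to that at P5 was 0.965 in Hep-Orgs and 1.13 in Cho-Orgs for Rxra, 1.32 and 0.533 for Esr1, and 0.936 and 2.68 for Vdr. The difference between the 2 kinds of organoids was not tested, since their tables were normalized separately. In Hep-Orgs the moves of Rxra and Vdr were small, and Esr1 was at most 0.101 FPKM in every library.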

How the results depend on the processing

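Of 291 other fits of members above the filter in Cho-Orgs, each with a single change, 283 kept direction and side of the threshold, 8 became significant and 0 lost significance or reversed. With the replicate number as a block, Rxra from P5 to P10 became significant (log2 change 0.16, limma adjusted p = 0.0314), the genes called at P1 and at P5 against Pri-Hep went from 1 to 0 each, and no other call of a member above the filter changed. With the block and no filter, combined after the data were seen, Nr1i3 from P5 to P10 became significant (0.0991 to 0.0482) and Nr1h4 from P0 to P5 missed the threshold (0.0346 to 0.0581). With the compared groups alone, Rxra (limma adjusted p = 0.0271) and Nr1i2 (0.0234) were called from P5 to P10, which gave 2 members lower, and 0 genes were called at P1 and 0 at P5. Leaving out P0 replicate 1, P0 replicate 2 or P5 replicate 2 gave Rxra adjusted p-values of 0.0339 to 0.046. A pseudocount of 0.1 added Nr1i2 from P5 to P10 (2 lower), and median-ratio size factors added Vdr from P0 to P5 (log2 change -0.16, limma adjusted p = 0.0383). Without the filter, 1 member was higher from P0 to P5, 3 lower from P5 to P10 and 2 higher from P0 to P10. With a mean of at least 5 FPKM, where Rxra alone was tested, these steps gave 1 lower, 0 higher with 0 lower, and 0 higher with 1 lower.

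In the hepatocyte table, genes called with no filter numbered 1 for all passages, 4 at P5 and 2 at P10. At a mean of at least 5 FPKM 7 were called at P5, with TPM 2, and without the trend 0 at P1 and 0 at P5. By limma-voom 12 were called for all passages, 30 at P1, 39 at P5 and 29 for P10 against P1. Leaving out single libraries gave 0 to 2 at P1, 0 to 3 at P5 and 0 to 2 for P10 against P1, the extra calls for P10 against P1 coming without Pri-Hep replicate 3. Uncalled log2 changes over all passages reversed for Thrb (without P1 replicate 3, P5 replicate 2 or Pri-Hep replicate 2; range -0.0852 to 0.0606), Nr1h3 (without Pri-Hep replicate 2; -0.0586 to 0.1318) and Nr0b2 (without Pri-Hep replicate 3; -0.1808 to 0.0499). The cause was not tested.

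In Smart-Seq a pseudocount of 0.1 gave 5 members higher in grape-like and 4 in intermediate than in round-like organoids, and 1 higher and 4 lower in grape-like than in intermediate. Median-ratio size factors gave 4 in intermediate against round-like. Levels under 1 FPKM and the depth of the hepatocyte libraries limit Nr1i2, Nr1i3 and Esr1 there.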
